A study of Rattus norvegicus with 20 samples.

Results

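Oxidative phosphorylation is carried out by 5 protein complexes of the inner mitochondrial membrane, and most of their subunits are encoded in the nucleus. This account covers 76 such genes of rat whole blood. They were chosen by gene symbol (names beginning Nduf with a, b, c, s or v and a number, Sdha to Sdhd, Uqcr, Cox4 to Cox8 followed by a, b or c, and Atp5; Cox4i1, Cyc1 and Ndufab1 have other names and are not included), taking the row with most reads where a symbol was repeated, and keeping those with at least 2 reads in at least 15 of 19 libraries. Of the 32882 genes in the count table, 87 rows with 83 symbols had such a name, and 76 symbols passed. They fell to complex I (35 genes), complex II (4), complex III (8), complex IV (12) and complex V, the ATP synthase (17). The choice used names and detection, not differences between diets.

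Complexes I and II pass electrons from NADH and succinate to ubiquinone, complex III passes them on to cytochrome c, and complex IV hands them to oxygen. The proton gradient that complexes I, III and IV build is used by complex V to make ATP. Mature mammalian red cells have lost their mitochondria, while reticulocytes, platelets and leukocytes still carry them, so whole blood mixes cells with and without this machinery.

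Whole blood RNA was sequenced from male wild-type Fischer 344 rats, labelled as 8 weeks old, after 20 days on 1 of 4 diets, with 5 rats on each. Every rat ate a diet of defined amino acids with sufficient choline (CSAA), given alone as the control or with 1.2 g/kg resveratrol (CSAA+RSV), 1.34 g/kg pterostilbene (CSAA+PTS, the dimethoxy analog of resveratrol) or 1.9 g/kg chlorogenic acid (CSAA+CGA, an unrelated polyphenol). The library of CSAA+RSV Rat4 held only 861072 counts and was left out, which left 4 CSAA+RSV rats. The study set aside the same library as an outlier, going by the number in its sample description. The comparisons of a supplemented diet with CSAA share the same 5 control rats.

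The 19 libraries held about 24036700 to 36743100 counts each. The libraries of the fifth rat of each diet stood apart, with 25104 to 29543 genes detected against 19600 to 23632 in the others. Hemoglobin genes took 10.8% to 15.8% of the counts in CSAA, 3.78% to 11.5% in CSAA+RSV, 4.12% to 11.2% in CSAA+PTS and 5.93% to 16.2% in CSAA+CGA. Of 100 listed markers of red cells, platelets, neutrophils, monocytes, T cells, B cells and NK cells, 92 passed the detection limit, and these had reads in every library except C1qa, at 0 in 1. Of the other 8, 4 matched no row by symbol and 4 were below the limit, Gp1bb with 0 reads over the 19 libraries, Lcn2 with 37, Elane with 55 and C1qb with 50. In bulk blood, fewer cells of a type and less RNA per cell cannot be told apart.

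Levels are given as CPM, a gene's counts over the library's total on a common scale, with that total adjusted by TMM, the trimmed-mean factors of edgeR, and differences between diets as log2 fold changes with a standard error (SE) from edgeR's quasi-likelihood test (two-sided), adjusted by Benjamini-Hochberg over 16734 genes. No gene of the table passed an adjusted p of 0.05 in any of the 4 comparisons (0% called in each), so none of the 76 did. Counts at an unadjusted p under 0.05 are therefore given beside the share of all genes tested that reached it.

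A few genes carried most of the reads. Atp5f1b, the catalytic beta subunit of the ATP synthase, held 20.8% of the reads of the 76 genes, Atp5if1, the protein that inhibits the enzyme, held 18.7%, and Uqcrh, the hinge subunit of complex III, held 11.9%. With Cox7a2l, Cox7b, Cox6a1 and Ndufa1, 7 genes made up 68.3%. Complex V took 52.0% of the reads, complex IV 19.5%, complex III 14.4%, complex I 12.7% and complex II 1.44%.

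To compare genes with each other, the mean CPM in the 5 CSAA rats was divided by the gene length in the table; the sources used here do not define it. On that scale of CPM per kilobase, Atp5if1 stood highest at 1449, followed by Uqcrh at 800.3, the small complex I subunit Ndufa1 at 688, Atp5f1b at 453 and Cox7b at 339. The core complex I subunits that hold redox centers were far lower: Ndufv1, which takes up the electrons of NADH, was at 8.01 CPM per kilobase and the iron-sulfur subunits Ndufv2 at 12.3, Ndufs1 at 6.05, Ndufs7 at 6.92 and Ndufs8 at 6.33, beside a median of 10.7 over the 35 genes of the complex. The flavoprotein Sdha was at 10.8, its iron-sulfur partner Sdhb at 9.25 and the Rieske protein Uqcrfs1 at 14.04. The lowest of the 76 was Cox7a1, the heart and muscle isoform of a complex IV subunit, at 0.106 CPM per kilobase.

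Subunits with tissue isoforms were measured mainly as the form found in most tissues. Cox6a1 and Cox8a averaged 158 ± 35.8 and 46.7 ± 8.68 CPM in CSAA (SD, n = 5). Their muscle forms Cox6a2 and Cox8b held 29 and 19 reads over all 19 libraries and did not pass the detection limit, nor did Cox8c (19 reads), Cox6b2 (47), Cox7b2 (1), Ndufa4l2 (74) or the pseudogene Cox6c-ps1 (11). The 3 genes of the membrane rotor subunit c encode the same mature protein, and Atp5mc2 gave 48.6% to 55.7% of their summed CPM in CSAA, Atp5mc3 31.6% to 36.2% and Atp5mc1 9.74% to 15.2%.

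Some of the values rest on rows that could trade reads. Cox6b1 was listed in a pair of rows, with 38340 and 34979 reads, and Uqcrb likewise with 4056 and 2178, so levels of both genes are uncertain where copies share sequence. How the counting treated strand was not stated in the sources, so reads of genes that overlap on opposite strands may not be separated.

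Sequences before the start sites show what some of these genes share in their promoters. Of the 76 genes, 67 matched an entry of the RefSeq promoter table (build GRCr8, 250 bases before to 50 bases after the annotated start). Motifs were searched on both strands. AAGATGGC, a core of the YY1 site, was found in 15 of the 67 (22.4%) against 3.44% of all 27457 promoters. CCGGAAGT, an ETS-family site of the kind bound by GABPA, was found in 8 (11.9%) against 4.01%. GCGCATGCG, a core of the NRF1 palindrome, was found in 6 (8.96%) against 1.66%. TATAAA was found in 7 (10.4%) against 14.3%, and GGGCGG in 26 (38.8%) against 34.9%. These matches describe the letters of the window and do not show binding in blood.

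The 150 bases before the start are printed 5′ to 3′ for 4 genes, chosen after their values were seen, as examples from the 12 genes whose levels ran with or against the hemoglobin share (described further on): Ndufb7, Atp5pf and Atp5mc3 from the former and Uqcrh from the latter. Capitals mark a full match to the ETS letters (or their reverse complement) in Uqcrh and Ndufb7 and to the YY1 letters in Atp5pf, and Atp5mc3 had no match to the ETS, YY1 or NRF1 letters in this stretch. On GRCr8 they lie on the minus strand, Uqcrh at chr5:134790883-134791032, Ndufb7 at chr19:41477292-41477441, Atp5pf at chr11:37375102-37375251 and Atp5mc3 at chr3:79220665-79220814.
Uqcrh: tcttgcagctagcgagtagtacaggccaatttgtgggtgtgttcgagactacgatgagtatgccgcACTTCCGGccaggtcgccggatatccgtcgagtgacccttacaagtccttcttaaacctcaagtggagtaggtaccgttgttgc
Ndufb7: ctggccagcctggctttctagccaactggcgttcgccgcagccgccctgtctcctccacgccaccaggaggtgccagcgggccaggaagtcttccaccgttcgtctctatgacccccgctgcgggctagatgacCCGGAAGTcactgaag
Atp5pf: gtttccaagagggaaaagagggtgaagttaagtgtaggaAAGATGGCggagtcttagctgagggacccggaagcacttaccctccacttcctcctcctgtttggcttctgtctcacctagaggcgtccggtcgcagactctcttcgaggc
Atp5mc3: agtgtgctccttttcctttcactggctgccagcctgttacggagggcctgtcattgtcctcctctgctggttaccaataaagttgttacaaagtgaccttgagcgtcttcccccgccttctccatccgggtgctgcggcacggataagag

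Summed over all 76 genes, the diets overlapped in CPM. The sum was 3814, 4031, 5038, 3302 and 3362 CPM in CSAA Rat1 to Rat5. It was 4173, 4021, 5258 and 2936 in CSAA+RSV Rat1, Rat2, Rat3 and Rat5, and 3529, 5560.3, 5817, 3828 and 3074 in CSAA+PTS Rat1 to Rat5. It was 3634, 3042, 4311, 4128 and 4009 in CSAA+CGA Rat1 to Rat5. Rat3 was the highest of its diet in all 4 diets, with CSAA+PTS Rat2 close to CSAA+PTS Rat3, and CSAA+RSV Rat5 was the lowest of all.

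By complex and on the TMM scale, the means of the diets lay near that of CSAA. For complex I the ratio to the CSAA mean was 1.00 for CSAA+RSV, 1.08 for CSAA+PTS and 1.01 for CSAA+CGA, and for complex V it was 1.05, 1.10 and 0.977. Of the CSAA+PTS ratios, that of complex III was the largest, with 653 ± 172 CPM in CSAA+PTS (SD, n = 5) against 539 ± 86.2 in CSAA (SD, n = 5), a ratio of 1.21. Most of that sum was Uqcrh, and the other 7 genes of the complex summed to 109 ± 23.3 against 101 ± 15.6 CPM, a ratio of 1.08. Complex II was the steadiest, at 57.3 ± 7.59 against 58.6 ± 3.33 CPM. On this scale the ranges of the 4 diets overlapped in every complex, and each difference in means was smaller than the SD of the CSAA+PTS rats.

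**Figure D1:**
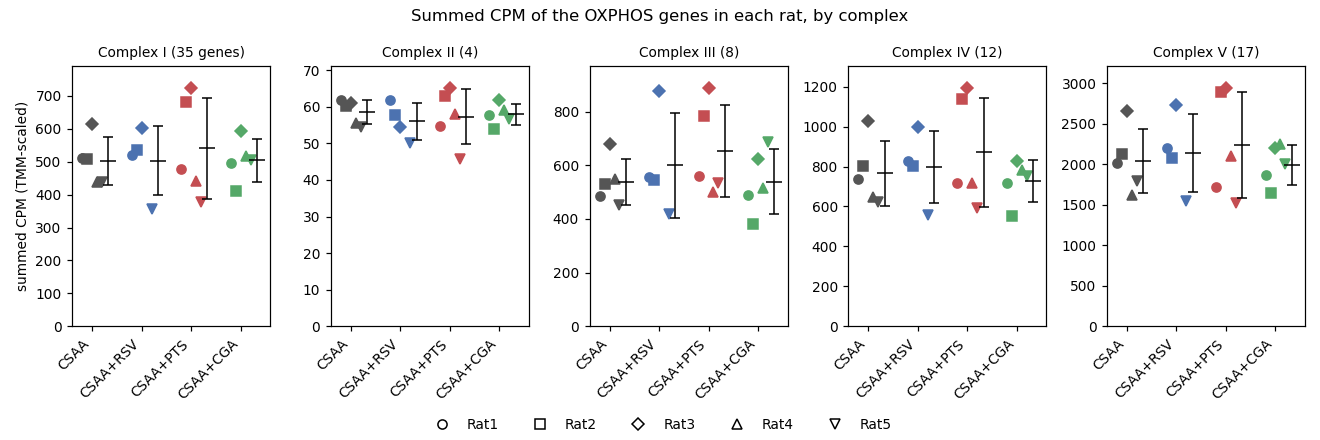
Summed CPM (TMM-scaled, vertical axis from 0) of the genes of each complex in each of the 19 rats, by diet on the horizontal axis, with marker shape giving the rat number and the black bars the mean and SD. CSAA+PTS Rat2 and Rat3 lie at the top of all 5 complexes among the CSAA+PTS rats. CSAA+RSV Rat5 lies at or near the bottom, as does CSAA+PTS Rat5 except in complex III. There CSAA+PTS Rat5 is at 534 CPM, above CSAA+PTS Rat4 at 501.5.

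Most of the 76 genes varied together from rat to rat. CSAA+PTS Rat2 or Rat3 held the highest value of 19 rats for 59 of the 76, and CSAA+RSV Rat5 or CSAA+PTS Rat5 the lowest for 50. Between pairs of the genes the median Pearson r over the 19 rats was 0.63 (2850 pairs, 91.6% above 0), with 0.78 within complex IV, 0.67 within complex V, 0.53 within complex III, 0.52 within complex I and 0.39 within complex II. The first principal component of their log2 CPM took 67.1% of the variance, with the same sign for 74 of 76 genes, and the next took 12.5%. All these points share library, depth and scaling. TMM factors were low in several rats with high CPM (0.750 in CSAA+PTS Rat2, 0.858 in CSAA+PTS Rat3, 0.754 in CSAA Rat3). They were high in some with low CPM (1.43 in CSAA+PTS Rat5, 1.34 in CSAA+RSV Rat5). Less extreme factors were those of CSAA+RSV Rat3 (0.910, high CPM) and CSAA+CGA Rat2 (1.10, low CPM), and CSAA+PTS Rat4 had a factor of 1.24 with a middling CPM. The part of the TMM factors in the pattern was not tested.

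**Figure D2:**
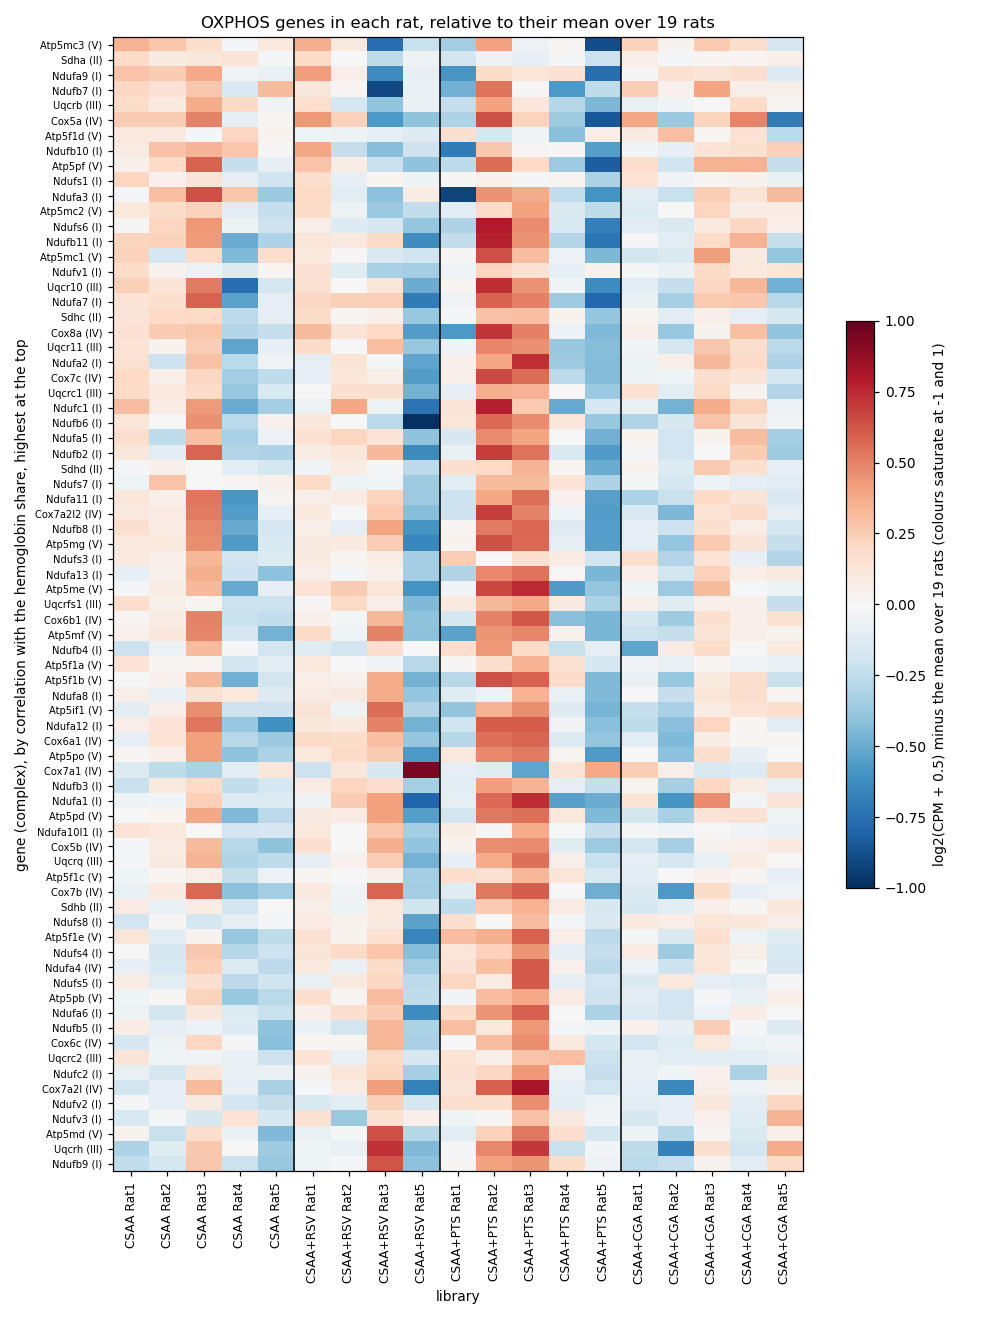
Each row is 1 of 75 of the genes and each column 1 of 19 rats, with the color giving log2(CPM + 0.5) minus the gene's mean over the 19 rats (scale saturated at -1 and 1) and rows ordered by their correlation with the hemoglobin share. Columns of CSAA+PTS Rat2 and Rat3 are red for most genes and those of CSAA+RSV Rat5 and CSAA+PTS Rat5 blue, and in CSAA+RSV Rat3 the top rows are blue and the bottom rows red.

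The comparison of CSAA+PTS with CSAA asks how blood mRNA differs when pterostilbene is added to the diet. On the TMM scale 60 of the 76 genes had a log2 fold change above 0 and 16 below it, with a median of 0.14 beside 0.02 over all genes tested, of which 47.2% were below 0. At an unadjusted p under 0.05 there was 1 gene lower and 2 higher, beside 4.54% and 3.05% of all genes, and in either direction 3 of 76 (3.95%) beside 7.58%. DESeq2 also called 3 of the 76 at an unadjusted p under 0.05 (its share of all genes is not given here) and 0 at an adjusted p of 0.05. Leaving out CSAA+PTS Rat3 brought the median to 0.02, with 32 genes below 0.

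Sdha, the flavoprotein that oxidizes succinate in complex II and in the citric acid cycle, was the gene that lay lower. It was at 26.20, 24.33, 24.77, 25.01 and 22.68 CPM in CSAA Rat1 to Rat5 and at 20.001, 21.96, 21.58, 22.56 and 19.57 in CSAA+PTS Rat1 to Rat5. Every CSAA+PTS rat was below every CSAA rat, though the nearest values, 22.56 and 22.68, almost met. Of the 76 genes, 1 was without overlap in this direction, beside 0.884% of all genes, and 0 in the other, beside 0.502%. The log2 fold change was -0.22 (SE 0.08, edgeR adjusted p = 0.640). CSAA+RSV gave 26.30, 22.82, 19.04 and 21.95 CPM and CSAA+CGA 23.9, 22.5, 23.1, 23.1 and 23.6, both overlapping CSAA. Leaving out CSAA Rat3 took its unadjusted p above 0.05. As shares of total counts without TMM scaling the difference was -0.03 on the log2 scale, and the groups overlapped.

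The other complex II genes named by the rule had values above 0. For Sdhb, the iron-sulfur subunit, the log2 fold change was 0.10 (SE 0.12, edgeR adjusted p = 0.818), and for the membrane anchor Sdhd it was 0.12 (SE 0.13, edgeR adjusted p = 0.796).

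In complex I, Ndufb5, an accessory subunit of the membrane arm, had the lowest p of the complex. It was at 6.65, 5.88, 6.01, 5.71 and 4.64 CPM in CSAA Rat1 to Rat5 and at 7.87, 6.79, 8.67, 6.23 and 6.06 in CSAA+PTS Rat1 to Rat5, with 3 CSAA+PTS rats above all CSAA rats. Its log2 fold change was 0.30 (SE 0.14, edgeR adjusted p = 0.645). Ndufb9 and Ndufb10, accessory subunits of the same arm, lay on opposite sides. Ndufb9 was at 29.7 ± 4.63 CPM in CSAA+PTS (SD, n = 5) against 23.3 ± 4.42 in CSAA (SD, n = 5), and Ndufb10 at 7.66 ± 2.24 against 9.88 ± 1.02. Their log2 fold changes of 0.35 (SE 0.17) and -0.37 (SE 0.18) had adjusted p of 0.656 each. These genes were picked as the lowest p of their complex, so the p restates that choice. In all, 27 of the 35 genes of complex I were above 0, with a median of 0.13.

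Core subunits of complex I form the path of electrons from NADH toward ubiquinone, though not each of them holds a redox center. The log2 fold change was 0.04 (SE 0.11) for Ndufv1, 0.24 (SE 0.12) for Ndufv2, -0.07 (SE 0.10) for Ndufs1, 0.03 (SE 0.14) for Ndufs3, 0.02 (SE 0.13) for Ndufs7 and 0.17 (SE 0.12) for Ndufs8. For Ndufv2, 3 CSAA+PTS rats were above all CSAA rats, and none of these 6 reached an unadjusted p under 0.05.

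In complex III, 7 of 8 genes were above 0 (median 0.15). Uqcrh was at 374, 426, 559.6, 466 and 363 CPM in CSAA Rat1 to Rat5 and at 461, 649, 757, 398 and 456 in CSAA+PTS Rat1 to Rat5, so that 2 CSAA+PTS rats were above all CSAA rats and the rest among them. Its log2 fold change was 0.31 (SE 0.24, edgeR adjusted p = 0.718). Uqcrc2, a core protein, was at 0.17 (SE 0.10), its partner Uqcrc1 at 0.08 (SE 0.16) and the Rieske protein Uqcrfs1, which passes electrons to cytochrome c1, at 0.17 (SE 0.14). Uqcrb, a small subunit near the ubiquinone site, was the only one of the 8 below 0, at -0.24 (SE 0.15, edgeR adjusted p = 0.690). A ratio within a rat does not depend on the scaling, and that of Uqcrh to Uqcrb in CPM, a pair chosen after the values were seen, was 48.0 to 62.8 in CSAA and 71.0 to 102.5 in CSAA+PTS, without overlap. It was 53.1 to 152 in CSAA+RSV and 43.5 to 87.4 in CSAA+CGA. The pair has fold changes on opposite sides of 0, so the lack of overlap partly restates that choice. How many gene pairs would separate in this way was not counted. Uqcrb is also listed in a pair of rows, so its level in the ratio is uncertain.

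In complex IV, 11 of 12 genes were above 0 (median 0.16). Cox7a2l, a factor that joins complexes III and IV into supercomplexes, was at 243 ± 76 CPM in CSAA+PTS against 189 ± 33.4 in CSAA (SD, n = 5 each). The log2 fold change was 0.37 (SE 0.22, edgeR adjusted p = 0.686). Ndufa4, long counted with complex I and now assigned to complex IV, was at 0.27 (SE 0.15) and Cox6c at 0.24 (SE 0.14). The exception was Cox5a, a subunit on the matrix side. It was at 18.3, 18.3, 21.7, 14.4 and 15.5 CPM in CSAA Rat1 to Rat5 and at 12.3, 24.2, 17.9, 11.8 and 8.27 in CSAA+PTS Rat1 to Rat5, with both the highest and the lowest of these values in CSAA+PTS. Its log2 fold change was -0.24 (SE 0.28, edgeR adjusted p = 0.803). The isoforms Cox6a1, Cox6b1 and Cox8a were at 0.14 (SE 0.20), 0.03 (SE 0.21) and 0.07 (SE 0.24), and Cox7a1, near the detection limit with 0 reads in CSAA+PTS Rat3, at 0.43 (SE 0.66).

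In complex V, 12 of 17 genes were above 0 (median 0.16). Atp5f1e, the epsilon subunit of the central stalk, was at 22.5, 19.1, 21.3, 15.8 and 17.3 CPM in CSAA Rat1 to Rat5 and at 25.7, 26.8, 31.4, 21.7 and 17.2 in CSAA+PTS Rat1 to Rat5. The groups overlapped, with 3 CSAA+PTS rats above all CSAA rats. Its log2 fold change was 0.36 (SE 0.16, edgeR adjusted p = 0.645). The gamma subunit Atp5f1c was at 0.19 (SE 0.10), the alpha subunit Atp5f1a at 0.13 (SE 0.10) and the peripheral stalk subunit Atp5pb at 0.20 (SE 0.13).

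Atp5f1b and Atp5if1, the enzyme's catalytic subunit and its inhibitor, were the most abundant pair. Atp5f1b was at 951 ± 312 CPM in CSAA+PTS against 804 ± 162 in CSAA (SD, n = 5 each), a log2 fold change of 0.24 (SE 0.22). Atp5if1 was at 745 ± 220 against 749 ± 158 CPM (SD, n = 5 each), with -0.01 (SE 0.21), a value whose sign turned under other scalings. Within a rat the CPM of Atp5if1 over that of Atp5f1b was 0.832 to 1.08 in CSAA and 0.719 to 0.879 in CSAA+PTS, which overlapped, beside 0.837 to 1.02 in CSAA+RSV and 0.805 to 1.18 in CSAA+CGA. In zebrafish the inhibitor is needed for heme synthesis in developing red cells.

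The rotor genes differed among themselves. Atp5mc3 was at 10.9, 10.3, 9.60, 8.32 and 9.10 CPM in CSAA Rat1 to Rat5 and at 6.55, 11.3, 8.10, 8.51 and 4.34 in CSAA+PTS Rat1 to Rat5, with 3 CSAA+PTS rats below all CSAA rats and 1 above them. Its log2 fold change was -0.31 (SE 0.22, edgeR adjusted p = 0.696), against 0.13 (SE 0.22) for Atp5mc1 and -0.01 (SE 0.14) for Atp5mc2, the sign of the last turning under other scalings. Atp5mc3 gave 23.3% to 34.5% of the summed CPM of the 3 genes in CSAA+PTS, which overlapped the 31.6% to 36.2% of CSAA. Ndufa3, Ndufa9, Cox5a and Atp5mc3 are named because the study lists them as changed, on these same rats, so their directions are not independent evidence. The study's list comes from a model with estimated T cell, B cell and macrophage scores beside diet. The fit used here has diet alone, so the p-values are not for the same test. Ndufa9, which helps seat the ubiquinone site, was at -0.31 (SE 0.20, edgeR adjusted p = 0.694) and the membrane subunit Ndufa3 at -0.32 (SE 0.25, adjusted p = 0.728).

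**Figure D3:**
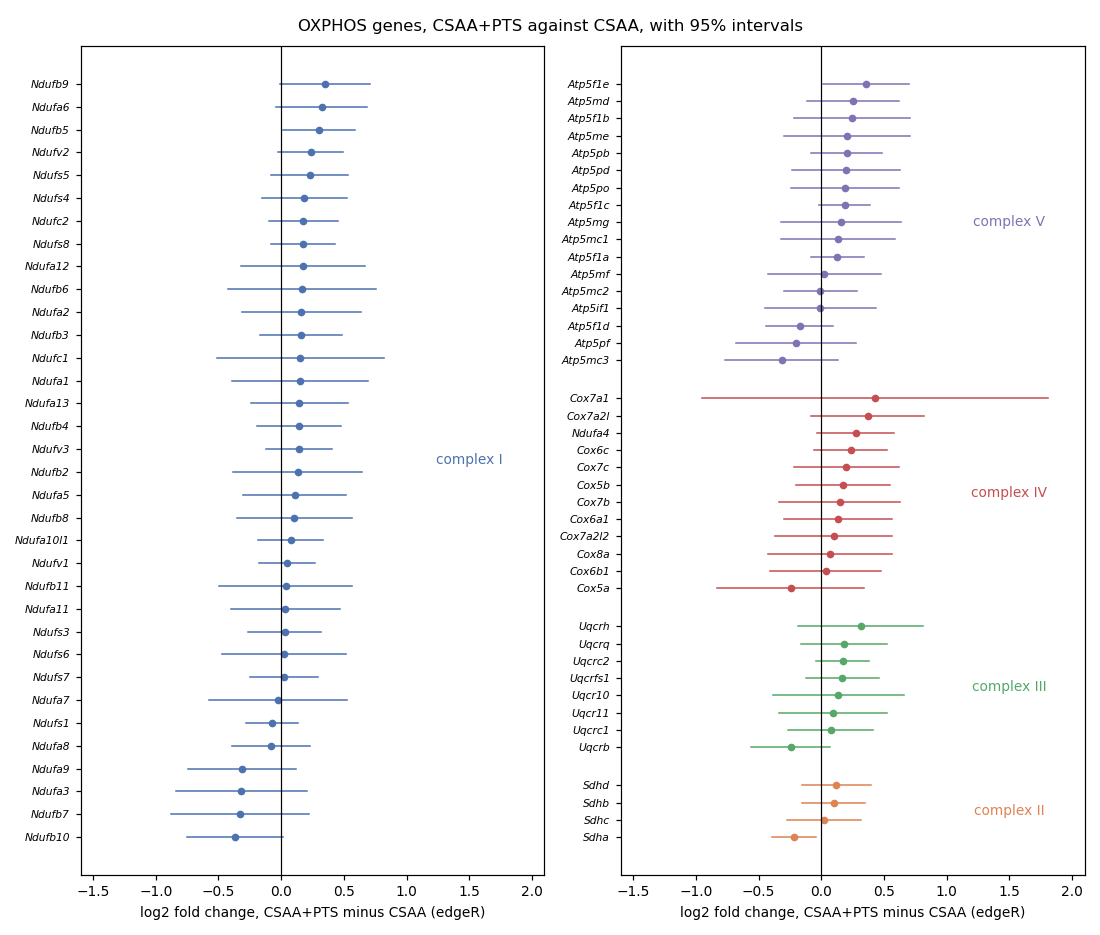
Log2 fold change of CSAA+PTS against CSAA (horizontal axis) for 75 of the genes, by complex, with 95% intervals from edgeR. Points lie above 0 for 60 genes, and 3 intervals leave out 0, those of Sdha (below), Ndufb5 and Atp5f1e (above).

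Of the 16 genes below 0, 9 had levels that ran with the hemoglobin share of the library. For 9 of the 76 (Atp5mc3, Sdha, Ndufa9, Ndufb7, Uqcrb, Cox5a, Atp5f1d, Ndufb10 and Atp5pf) the log2 CPM had a Pearson r above 0.5 with the hemoglobin share over the 19 rats (0.51 to 0.70), and all 9 were among the 16 with a log2 fold change below 0 for CSAA+PTS against CSAA. For 3 (Ndufb9, Uqcrh and Atp5md) r was below -0.5 (-0.56 to -0.53), and all 3 were above 0. The limit of 0.5 was set after the values were seen, and all points share the library, its depth and the same rats as the comparison. How many of all genes tested pass this limit was not counted. The median hemoglobin share was itself 5.20% in CSAA+PTS against 14.5% in CSAA, so r and the direction of the fold change are not independent. Over the 15 rats left without the fifth rat of each diet, r was 0.41 to 0.67 for the 9 genes and -0.72 to -0.60 for the 3. On shares of total counts r was -0.04 to 0.59 and -0.88 to -0.86. Such a share falls as hemoglobin takes more of the total, so r on that scale leans below 0 by construction. With hemoglobin out of the totals, r was 0.22 to 0.77 for the 9 genes and -0.82 to -0.78 for the 3. In these checks values this low were not particular to the 3 genes. Without the fifth rats Uqcrc2 was at -0.70 and Cox6c at -0.63. On total counts Cox7a2l was at -0.88 and Ndufs4 at -0.84, and many others of the 76 were below -0.5. The split also depended on the measure. Against the mean log2 CPM of the red cell markers, r on the TMM scale was 0.22 (Atp5f1d) to 0.84 (Cox5a) for the 9 genes. For the 3 it was -0.22 (Uqcrh) to -0.15 (Atp5md). Genes outside the 9 reached similar values, such as Ndufb11 at 0.67 and Uqcr10 at 0.63.

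Red cell markers had the following values in the same comparison. Of 21 red cell genes tested, 17 had a log2 fold change below 0 for CSAA+PTS against CSAA (47.2% of all genes), with a median of -0.25, and 7 reached an unadjusted p under 0.05, all lower (4.54% of all genes), with 0 at an adjusted p of 0.05. Against the same controls 18 of the 21 were below 0 in CSAA+RSV (46.7% of all genes), with a median of -0.13. At an unadjusted p under 0.05, 2 were lower, beside 2.13% of all genes in either direction. In CSAA+CGA 19 were below 0 (51.6% of all genes), with a median of -0.07. There 0 were lower at that limit, beside 0.639% of all genes in either direction. The summed CPM of the 21 red cell genes was 130722 to 242588 in CSAA and 57274 to 199145 in CSAA+PTS, and all 21 were detected in every library. Markers of the other cell types went both ways for CSAA+PTS against CSAA. Medians were 0.25 for neutrophils (4 of 12 below 0), 0.22 for NK cells (3 of 9) and 0.04 for monocytes (4 of 11). They were -0.08 for platelets (7 of 13), -0.08 for B cells (8 of 11) and -0.09 for T cells (10 of 15). At an unadjusted p under 0.05, 2 monocyte markers and 1 T cell marker were lower (4.54% of all genes). At the same limit 1 neutrophil and 1 NK cell marker were higher (3.05% of all genes), and 0 platelet or B cell markers reached it. The part of red cell or other cell content in the OXPHOS values was not tested.

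**Figure D4:**
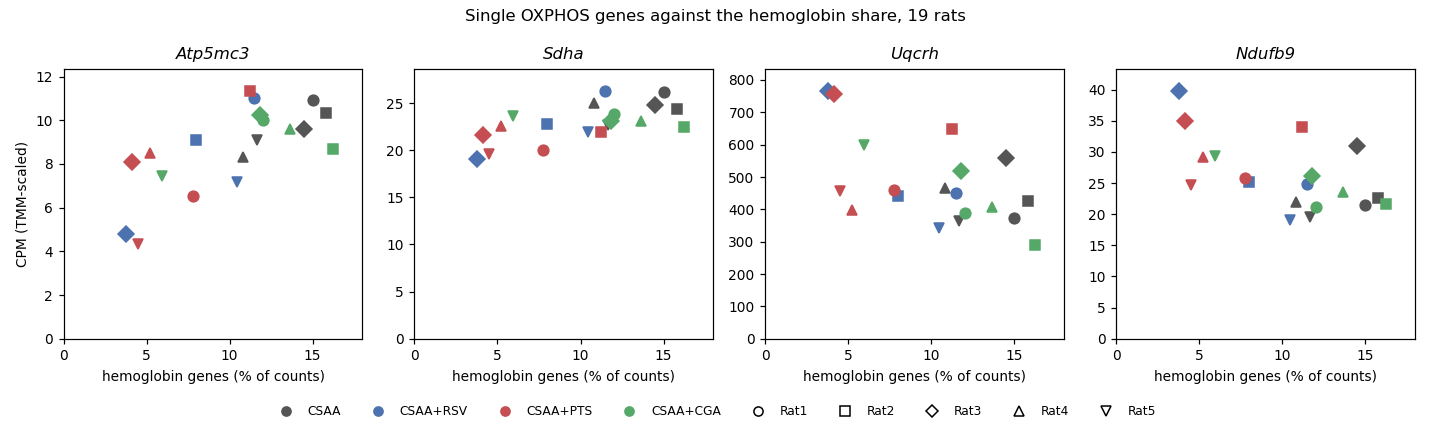
CPM (TMM-scaled, vertical axes from 0) of 4 genes against the hemoglobin share of the counts in percent, with color for diet and shape for rat number in 19 rats. On this scale Atp5mc3 (r = 0.70) and Sdha (r = 0.65) are higher in libraries with more hemoglobin, and Uqcrh (r = -0.55) and Ndufb9 (r = -0.56) lower. The values depend on the scaling, and on shares of total counts r is 0.56 for Atp5mc3 and -0.04 for Sdha.

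How the 76 genes as a group compared depended on the scaling. As a plain share of total counts (CPM with no TMM factor), they took 3594, 3647, 3799, 3585 and 3487 CPM in CSAA Rat1 to Rat5 and 4002, 4172, 4994, 4728 and 4391 in CSAA+PTS Rat1 to Rat5, without overlap. CSAA+RSV gave 3993, 3896, 4785 and 3941, also all above CSAA, and CSAA+CGA 3401, 3352, 3926, 3622 and 4605, which overlapped. With the hemoglobin counts left out of the totals, CSAA was at 3948 to 4443 and CSAA+PTS at 4339 to 5209, and these overlapped. The median hemoglobin share was 14.5% in CSAA, 9.22% in CSAA+RSV, 5.20% in CSAA+PTS and 12.0% in CSAA+CGA.

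Without TMM factors, edgeR put 34 of the 76 genes higher in CSAA+PTS than in CSAA at an unadjusted p under 0.05 and 0 lower, beside 11.8% of all genes higher. None passed an adjusted p of 0.05 (lowest 0.113). This scaling, added after the data were seen, moved the median of all genes to 0.21 on the log2 scale and that of the 76 genes to 0.27 (0.02 and 0.14 with TMM). The same scaling put 5 genes higher in CSAA+RSV than in CSAA, beside 2.32% of all genes, 0 higher in CSAA+CGA than in CSAA, beside 0.167%, and 5 higher in CSAA+PTS than in CSAA+RSV, beside 1.62%. In 8 of the 76 genes (Atp5pb, Atp5pd, Cox5b, Cox7a2l, Ndufa6, Ndufb3, Ndufb9 and Uqcrq) every CSAA+PTS rat then lay above every CSAA rat, beside 2.2% of all genes. For CSAA+RSV against CSAA this held for 6 of the 76, beside 1.69%. With hemoglobin out of the totals it held for 4 (Cox5b, Cox7a2l, Ndufa6 and Ndufb9) in CSAA+PTS, beside 1.15%, and for 0 in CSAA+RSV, beside 0.46%.

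**Figure D5:**
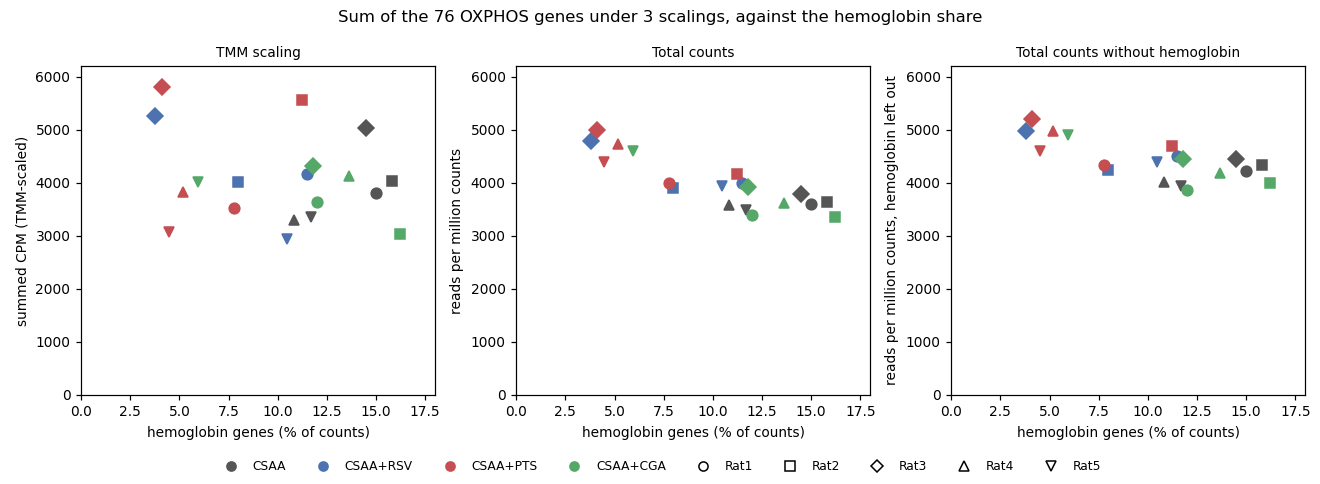
Sum of the 76 genes in each of 19 rats against the hemoglobin share of the counts in percent, as TMM-scaled CPM (left), as CPM of total counts with no TMM factor (middle) and the same without hemoglobin in the totals (right), all from 0. The CSAA and CSAA+PTS rats overlap at the left and at the right and separate in the middle, at 3487 to 3799 and 4002 to 4994.

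For CSAA+RSV against CSAA, on the TMM scale, 37 of the 76 genes were above 0 and 39 below (46.7% of all genes below), with a median of -0.01 beside 0.02 over all genes. None reached an unadjusted p under 0.05 with edgeR or DESeq2, beside 2.13% of all genes with edgeR. Without CSAA+RSV Rat1 there were 5 (4 lower, 1 higher), and the share of all genes in that fit is not given here. The lowest p belonged to Uqcrb, at 7.69, 5.96, 5.03 and 6.45 CPM in CSAA+RSV against 7.78, 7.32, 8.92, 7.89 and 6.62 in CSAA, which overlapped (log2 fold change -0.29, SE 0.16, edgeR adjusted p = 1.00), and to Cox7a1 (1.17, SE 0.67), where CSAA+RSV Rat5 alone was at 0.884 CPM and the others at 0.126 to 0.281. Leaving out 1 rat at a time, this Cox7a1 value ranged from 0.18 to 1.47. Atp5f1d, the delta subunit of the central stalk, was at 3.66, 3.65, 3.54 and 3.43 CPM in CSAA+RSV and at 3.75 to 4.48 in CSAA, without overlap, beside 0.347% of all genes.

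For CSAA+CGA against CSAA, 46 genes were below 0 and 30 above (51.6% of all genes below), with a median of -0.01 beside -0.01 over all genes, and 0 reached an unadjusted p under 0.05 with edgeR or DESeq2, beside 0.639% of all genes with edgeR. Ndufs8, an iron-sulfur subunit of complex I, was at 5.45, 5.34, 5.56, 5.54 and 5.35 CPM in CSAA+CGA and at 4.38, 5.11, 4.44, 4.74 and 5.02 in CSAA, without overlap, beside 0.155% of all genes. Its log2 fold change was 0.20 (SE 0.12, edgeR adjusted p = 1.00). Ndufs7 was at -0.17 (SE 0.13).

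Pterostilbene and resveratrol, which differ in a pair of methoxy groups, were compared at doses the study describes as equal in molar terms and at the same time of feeding. On TMM-scaled counts 64 of the 76 genes were above 0 for CSAA+PTS against CSAA+RSV and 12 below, with a median of 0.11 beside 0.00 over all genes, of which 50.1% were below 0. With edgeR 0 reached an unadjusted p under 0.05, beside 3.06% of all genes, and DESeq2 gave 1. Without CSAA+PTS Rat5 there were 6, without CSAA+RSV Rat3 3, without CSAA+RSV Rat1 2, and without CSAA+RSV Rat2 or CSAA+PTS Rat4 1, all higher. The shares of all genes in DESeq2 and in these fits are not given here. Leaving out CSAA+RSV Rat5, the lowest library for 31 of the genes, brought the median to -0.00. Ndufb6, an accessory subunit of complex I, was at 1.83 ± 0.567 CPM in CSAA+PTS (SD, n = 5) against 1.21 ± 0.521 in CSAA+RSV (SD, n = 4), a log2 fold change of 0.60 with a 95% interval of -0.04 to 1.24 (edgeR adjusted p = 1.00). Ndufv1 was at 13.3 ± 1.27 against 11.5 ± 1.95, a log2 fold change of 0.21 with an interval of -0.02 to 0.45. For Sdha the difference between the stilbenes was -0.09, with an interval of -0.28 to 0.09.

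Other genes of mitochondrial respiration gave the following counts for CSAA+PTS against CSAA. Of 43 assembly factors of the complexes tested, 28 were above 0, and Ndufaf4, an assembly factor of complex I, reached an unadjusted p under 0.05 (log2 fold change 0.43, SE 0.12, edgeR adjusted p = 0.599). Of 17 regulators of mitochondrial biogenesis, 9 were above 0 and 8 below, with a median of 0.01 beside 0.02 over all genes, and 4 reached that limit, all higher: the mitochondrial transcription factors Tfam (0.24, SE 0.11) and Tfb2m (0.24, SE 0.10) and the transcription termination factor family members Mterf1 (0.24, SE 0.11) and Mterf3 (0.30, SE 0.12). Of 16 genes of the citric acid cycle and its entry, 1 did, Pdha1, a subunit of pyruvate dehydrogenase (0.32, SE 0.13). None of these passed an adjusted p of 0.05, and 7.58% of all genes reached the unadjusted limit.

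The 13 protein genes of mitochondrial DNA, whose products join the same complexes, were also counted. Their median log2 fold change was -0.07 for CSAA+PTS, 0.37 for CSAA+RSV and -0.31 for CSAA+CGA against CSAA, and -0.42 for CSAA+PTS against CSAA+RSV, with 8, 1, 13 and 13 of the 13 below 0 and 0 at an unadjusted p under 0.05 in each. The medians of the nuclear genes in the same comparisons were 0.14, -0.01, -0.01 and 0.11. The summed CPM of the 13 was 6545 to 8815 in CSAA and 6821 to 9979 in CSAA+PTS, so these ranges overlapped. The difference between the nuclear and the mitochondrial genes was not tested.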

How the data were processed

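Whole blood RNA of 20 rats was sequenced, and the authors deposited whole-number read counts per Ensembl gene. Per the labels and the study's methods, the authors trimmed reads with Trimmomatic 0.32 and the FastX-Toolkit, checked them with FastQC 0.11, aligned them to rn6 with TopHat2 2.1, counted them with Rsubread and compared diets with DESeq2 1.30. The authors fitted diet alone and diet with estimated cell scores. Depth limits genes near the detection limit most. Genes with at least 2 reads in at least 15 of 19 libraries were tested in 1 edgeR 4.0.16 fit over the 4 diets (R 4.3.3, TMM, quasi-likelihood test, two-sided, Benjamini-Hochberg), with DESeq2 1.42.0 as an alternative, and the code was tested on simulated data. Summed CPM by complex carry no test. Other settings changed the scaling, filter, tool, replicate block and libraries.

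The members and lists were chosen with earlier results of these data known. Genes were named by a rule: the 3 lowest p of each complex and the 3 lowest above 0 for CSAA+PTS against CSAA, any gene past an adjusted p of 0.05 (0 genes), the 2 lowest p of each other comparison, 4 genes the study lists, isoform sets and catalytic subunits. Other named genes were chosen after their values were seen. Each label gives 1 rat, so p-values measure the spread between rats. Repeated symbols were reduced to the row with most reads. A few single-gene values are not reported here.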

Additional observations from a re-analysis of the deposited data

Results flagged for a closer look

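Of 164 groups checked (the summed CPM of the complexes and the named genes in each diet), 6 held 1 rat far from the others of its diet by Dixon's gap test, where chance gives about 1 in 20, or 8.2. Among them CSAA+RSV Rat5 was low for Atp5f1c, at 19.3 CPM against 24.6 to 25.6 in the other CSAA+RSV rats, and for Ndufs8, at 3.36 against 5.22 to 5.44. CSAA+PTS Rat5 was low for Ndufs1, at 11.7 CPM against 14.5 to 15.2. CSAA+CGA Rat2 was low for Cox7a2l, at 126 CPM against 184 to 206. CSAA Rat3 was high for Ndufb9, at 30.9 CPM against 19.5 to 22.5, and CSAA Rat2 for Ndufs7, at 7.95 against 6.26 to 6.71.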

How the results depend on the processing

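No alternative brought any of the 76 genes past an adjusted p of 0.05. For CSAA+PTS against CSAA, the 3 genes at an unadjusted p under 0.05 became 1 with no filter on low counts, 6 without the Rat5 libraries and 34 on total counts with no TMM factor, and leaving out 1 rat at a time gave 1 to 12, with the median log2 fold change at 0.02 to 0.25. The counts furthest from 3 came without CSAA Rat3 (10), CSAA+PTS Rat5 (12), CSAA+PTS Rat2 (6), CSAA Rat2 (1) and CSAA Rat4 (1). For CSAA+RSV against CSAA, the 0 genes became 5 on total counts and 0 to 5 leaving out 1 rat, with the median at -0.07 to 0.10. For CSAA+CGA, 0 became 1 with only the 2 diets fitted and stayed 0 leaving out 1 rat, with the median at -0.08 to 0.06. For CSAA+PTS against CSAA+RSV, 0 became 1 with CSAA+RSV Rat4 included, 1 with DESeq2, 5 on total counts and 0 to 6 leaving out 1 rat, with the median at -0.00 to 0.20. Apart from total counts, the share of all genes at an unadjusted p under 0.05 in these settings is not given here. A rise or fall of these counts is therefore no result about the 76 genes. The cause was not tested.

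For CSAA+PTS against CSAA, the log2 fold change of Atp5mc2 turned to 0.005 with RLE size factors, 0.0048 with DESeq2, 0.026 with only the 2 diets and 0.15 on total counts. That of Atp5if1 turned to 0.0029 with RLE factors, 0.0029 with DESeq2, 0.026 with only the 2 diets, 0.0276 without the Rat5 libraries and 0.14 on total counts, and Ndufs1 to 0.11 on total counts. For Sdha in CSAA+RSV against CSAA, total counts gave 0.0192. Summed complex II CPM on total counts was 1.05 times CSAA in CSAA+RSV and 1.04 times in CSAA+CGA. For CSAA+PTS the ratio on total counts was 1.18 for complex I, 1.10 for II, 1.34 for III, 1.25 for IV and 1.21 for V. Complex I was then at 456 to 481 CPM in CSAA and 512 to 622 in CSAA+PTS, without overlap. Complex IV was at 645 to 775 and 812 to 1025, also without overlap, while complexes II, III and V overlapped. With hemoglobin out of the totals, complexes I and IV overlapped as well. Complex I was then at 516 to 566 CPM in CSAA and 565 to 648.5 in CSAA+PTS. Complex IV was at 730 to 906 and 880 to 1069. Leaving out 1 rat at a time, Atp5mc2 ranged from -0.12 to 0.0814, Atp5if1 from -0.15 to 0.17, Cox6b1 from -0.14 to 0.21, Cox8a from -0.10 to 0.20, Ndufs7 from -0.0462 to 0.11, Atp5mc1 from -0.0149 to 0.26, Uqcrc1 from -0.008 to 0.17, Cox7a1 from -0.0074 to 0.73 and Cox6a1 from -0.0047 to 0.30.

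Sample descriptions number the libraries in a run over the diets, so same-numbered rats of different diets hold neighboring numbers, apart from CSAA Rat5. What these numbers stand for is not stated, and the labels give no shared litter, batch or day. Their deviations from the diet means correlated at -0.30 to 0.77 (27 pairs, median 0.20), against a median of -0.02 for other pairs. The Rat5 pairs were at 0.44 to 0.77, the Rat3 pairs at 0.02 to 0.47 and the Rat2 pairs at -0.30 to 0.32, and 9 of 19 libraries correlated best with their own number. With the number as a replicate block, 7 genes reached an unadjusted p under 0.05 for CSAA+PTS against CSAA, 1 for CSAA+RSV against CSAA, 0 for CSAA+CGA against CSAA and 6 for CSAA+PTS against CSAA+RSV. Counts of a few reads per library limit Cox7a1.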
